A study of Mus musculus with 9 samples.

Results

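The 8 genes described here are 5 members of the CCN family of secreted matricellular proteins, Ctgf (Ccn2), Cyr61 (Ccn1), Nov (Ccn3), Wisp1 (Ccn4) and Wisp2 (Ccn5), the YAP target genes Ankrd1 and Amotl2, and Yap1, which encodes YAP itself. They were chosen by name, and all 8 had a row in the table of 11931 genes. Wisp3, the remaining CCN gene, is not analysed here. Expression was measured in normal mammary fibroblasts taken from the mammary fat pad of 12-week-old female BALB/c mice, with 3 libraries in each of 3 groups: co-culture with 4T1 cells for 3 days, co-culture with 4T1 cells for 5 days, and monoculture for 5 days. All fibroblasts had first recovered for 1 week on collagen. The 4T1 line is a BALB/c mammary carcinoma line that here carried green fluorescent protein (GFP), and the fibroblasts of all groups were sorted as GFP-negative, podoplanin-positive cells before 3′ end mRNA libraries were made. The groups had no 3-day monoculture, so in the comparison of 3-day co-culture with monoculture the company of 4T1 cells and the days in culture cannot be told apart. Between 5-day and 3-day co-culture, days beside 4T1 cells and days in culture cannot be told apart either. The labels do not say whether replicates came from separate cultures or animals, so the p-values measure the spread between these libraries, which may be technical.

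CCN proteins are secreted into the extracellular matrix, where they bind integrins, heparan sulfate proteoglycans, growth factors and other matrix proteins, and in fibroblasts they are known for their roles in adhesion, matrix production and wound repair. YAP and its paralogue TAZ (gene Wwtr1) are transcriptional coactivators that enter the nucleus on stiff or spread-out substrates and act mainly through TEAD factors, which bind the core sequence GGAATG. The Hippo kinases LATS1 and LATS2 phosphorylate YAP and TAZ and keep them in the cytoplasm. Ctgf, Cyr61, Ankrd1 and Amotl2 are textbook targets of YAP and TAZ, whereas the other CCN genes are not usually counted among them.

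The start-site windows of these genes show where TEAD letters lie. RefSeq (GRCm38.p6) gave windows of 300 bases, 250 before and 50 after the annotated start, for Cyr61, Ankrd1, Amotl2 and Yap1, 4 of the 8 members. Each is printed 5′ to 3′ on the strand of its gene, with every GGAATG, or its reverse complement CATTCC, in capitals.
Cyr61, chr3:145649936-145650235, minus strand: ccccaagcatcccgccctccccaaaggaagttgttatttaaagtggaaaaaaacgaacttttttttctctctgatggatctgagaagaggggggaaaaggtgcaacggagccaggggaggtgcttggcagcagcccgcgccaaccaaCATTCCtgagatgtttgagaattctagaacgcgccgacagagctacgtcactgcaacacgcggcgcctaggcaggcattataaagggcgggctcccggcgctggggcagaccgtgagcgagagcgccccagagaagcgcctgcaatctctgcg
Ankrd1, chr19:36119795-36120094, minus strand: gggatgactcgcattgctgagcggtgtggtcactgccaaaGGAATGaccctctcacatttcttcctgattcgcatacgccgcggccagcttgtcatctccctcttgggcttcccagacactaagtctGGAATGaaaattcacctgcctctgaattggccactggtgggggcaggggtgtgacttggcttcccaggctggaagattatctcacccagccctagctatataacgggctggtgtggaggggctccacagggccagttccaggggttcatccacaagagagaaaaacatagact
Amotl2, chr9:102717554-102717853, plus strand: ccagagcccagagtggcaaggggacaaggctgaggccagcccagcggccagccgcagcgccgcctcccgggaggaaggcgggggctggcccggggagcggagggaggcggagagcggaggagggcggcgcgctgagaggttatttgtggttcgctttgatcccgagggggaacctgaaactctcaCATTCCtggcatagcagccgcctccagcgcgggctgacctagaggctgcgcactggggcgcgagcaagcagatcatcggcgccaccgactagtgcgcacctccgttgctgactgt
Yap1, chr9:8004547-8004846, minus strand: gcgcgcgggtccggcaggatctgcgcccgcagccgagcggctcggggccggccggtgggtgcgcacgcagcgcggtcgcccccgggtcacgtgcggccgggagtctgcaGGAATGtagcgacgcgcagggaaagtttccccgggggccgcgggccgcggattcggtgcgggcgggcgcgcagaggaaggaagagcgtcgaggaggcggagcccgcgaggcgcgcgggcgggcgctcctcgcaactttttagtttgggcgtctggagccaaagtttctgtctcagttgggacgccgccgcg
Counting the base just before the start as -1, Cyr61 held the reverse complement at -103 to -98, Ankrd1 held the forward letters at -210 to -205 and at -123 to -118, Amotl2 held the reverse complement at -65 to -60, and Yap1 held the forward letters at -141 to -136. GGAATG on either strand was thus present in 4 of 4 member windows, against 14.7% of all 32841 windows of the same length. The SMAD element CAGAC was found on either strand in 3 of 4 (Cyr61, Ankrd1 and Yap1), against 49.6% of all windows. The AP-1 element TGANTCA was in 0 of 4, against 7.81%, and the CArG box of serum response factor was in 0 of 4, against 1.63%. In Ankrd1, 1 CAGAC on the opposite strand shared a base with the second GGAATG. These matches are a description of letters and not of binding. Cyr61, Ankrd1 and Amotl2 were among the members as known targets of YAP and TAZ. Their TEAD letters are therefore no independent support for that role. No window was matched for Ctgf, Nov, Wisp1 and Wisp2. The windows of Ankrd1 and Amotl2 lie wholly inside the GENCODE M21 gene spans (chr19:36111961-36120099 and chr9:102716672-102733418). For these genes the RefSeq start used here therefore differs from the outer GENCODE start.

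Values are normalised counts, that is, reads per gene divided by a factor for each library, and reads recovered from them numbered 1048471 to 3567326 per library. The monocultures were deeper (2623911 to 3567326 reads) than the co-cultures at 3 days (1048471 to 2579766) and 5 days (1459381 to 1987168). 1 of the 3 columns of the 5-day co-culture, replicate 2, does not name 4T1 cells and was assigned by elimination, since each of the other 8 columns matched another sample. Fibroblast markers were present in every group. The 13 markers summed to 45980 to 58020 after 3 days and 41739 to 57131 after 5 days of co-culture. In monoculture they summed to 46799 to 64404. However, 5 of the 13 fell at 3 days, and 6 fell and 1 rose at 5 days (limma, adjusted p under 0.05). Their median log2 fold change was -0.12 at 3 days and -1.34 at 5 days, against 0.0014 and -0.0078 over all genes tested. Of all genes tested, 10.6% were called higher and 9.37% lower at 3 days, and 12.6% higher and 11.4% lower at 5 days. Of 18 markers of epithelium and carcinoma, 15 were measured and 14 tested. Beside these shares over all genes, 13 of the 14 markers were higher at both times. Their summed level was 811 to 1069 after 3 days and 1046 to 1438 after 5 days of co-culture, against 48.1 to 76.9 in monoculture, where Cldn3 and Elf3 were at 0. Of the pericyte and smooth muscle markers, 5 of 6 were measured, with sums of 186 to 274 and 207 to 258 in the 3-day and 5-day co-cultures, against 60.6 to 134 in monoculture. The adipocyte markers Fabp4 and Pparg, the 2 of 6 that were measured, summed to 10.0 to 25.1 and 13.5 to 18.7 in the co-cultures, against 103 to 157 in monoculture. Of the immune markers, 6 of 11 were measured and summed to 123 to 352 at 3 days and 67.3 to 150 at 5 days, against 96.5 to 266 in monoculture, and the 2 endothelial markers measured of 7 summed to 34.7 to 41.7 and 27.0 to 30.7, against 25.5 to 28.3. The epithelial and pericyte levels were higher, and the adipocyte levels lower, in every co-culture library than in any monoculture library, and their part in the results below was not tested.

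Ctgf was the member that rose at both times of co-culture, Nov and Amotl2 fell at both, Ankrd1 rose and Wisp2 fell at 5 days, and Cyr61, Wisp1 and Yap1 passed the test at neither time. A call means an adjusted p under 0.05 from limma on log2(value + 1), adjusted over the 10639 genes tested, and all 8 members were among them. In 3-day co-culture against monoculture 1 member rose and 2 fell, where 10.6% of all genes tested were called higher and 9.37% lower. In 5-day co-culture against monoculture 2 members rose and 3 fell, with 12.6% of all genes called higher and 11.4% lower. The comparisons at 3 and 5 days share the 3 monoculture libraries, so their results are not independent of each other. The libraries hold RNA of sorted cell populations, in which a change in the share of cells that express a gene and a change in RNA per cell cannot be told apart.

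**Figure D1:**
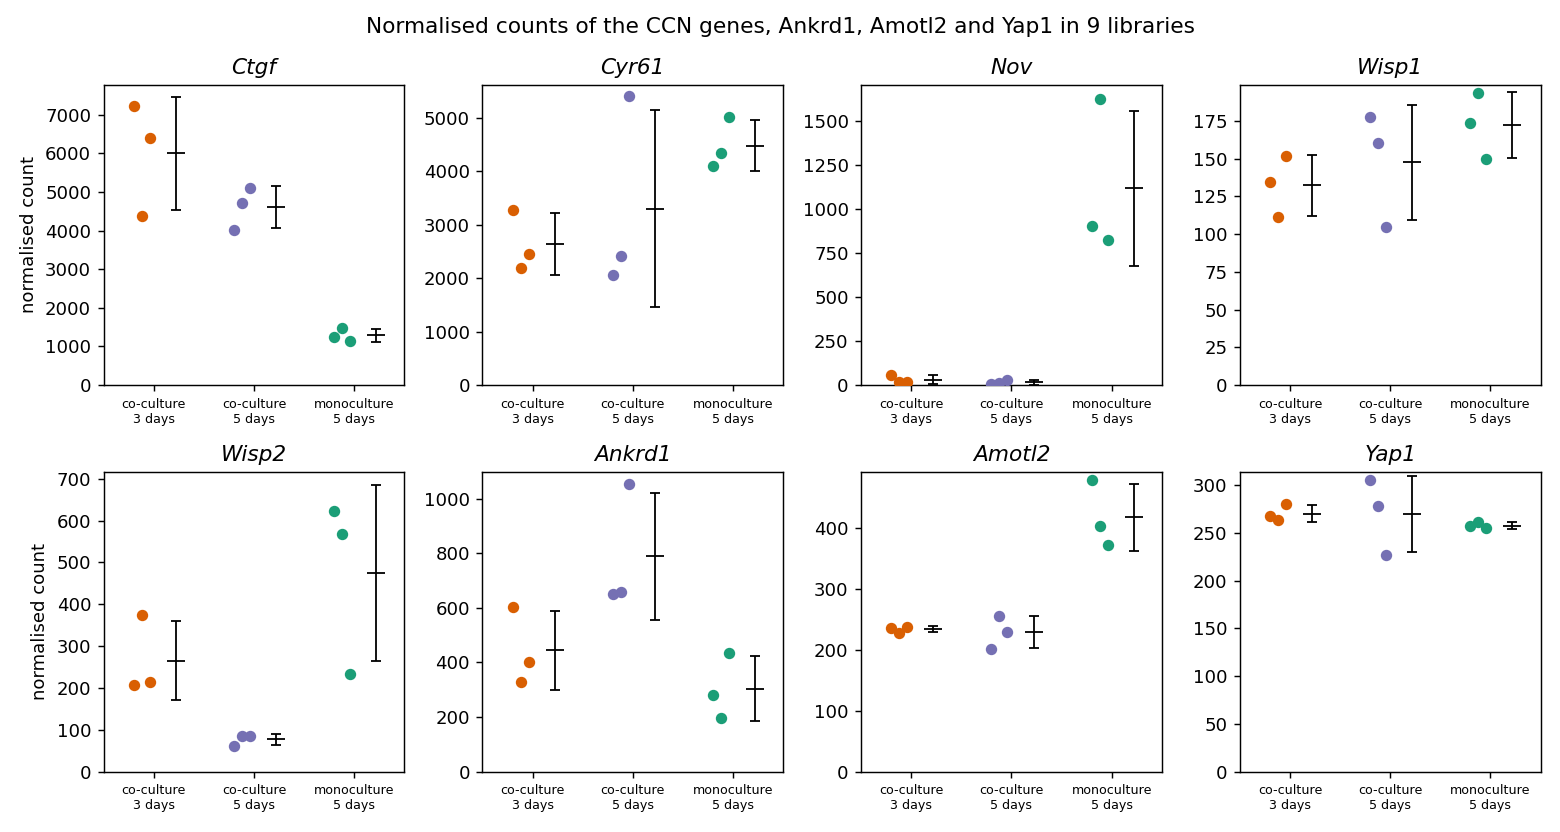
Normalised counts (linear axis from 0) of the 8 genes in 9 libraries, with 3-day co-culture left, 5-day co-culture in the middle and monoculture right in each panel; points are libraries, and the bars give the mean and SD of 3. All 6 co-culture libraries lie above the 3 monoculture libraries for Ctgf and below them for Nov and Amotl2, while Yap1 lies between 227 and 305.5 throughout.

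Yap1 mRNA (chr9:7931999-8004596, minus strand, mm10) was at nearly the same level in all groups. Its normalised counts were 267, 263 and 280 in the 3-day co-cultures, 305.5, 278 and 227 in the 5-day co-cultures, and 257, 261.5 and 254.5 in the monocultures. All 3-day values lay above all monoculture values by a small margin, and the 5-day values spanned both. The means were 270 ± 8.56, 270 ± 39.7 and 258 ± 3.57 (SD, n = 3 each) for 3-day co-culture, 5-day co-culture and monoculture. Yap1 changed by 0.07 on the log2 scale at 3 days (95% interval -0.29 to 0.42), with a limma adjusted p of 0.819, and by 0.06 at 5 days (-0.30 to 0.41), with an adjusted p of 0.845. At 5 days it took the other sign without 5-day replicate 1 (-0.04) and under quantile normalization (-0.0022). The change of Yap1 between the co-culture times was -0.01 (-0.37 to 0.35, adjusted p = 0.983), and it was positive without replicate 3 of the 3-day (0.02) or 5-day (0.11) co-culture and by edgeR (0.0036) and DESeq2 (0.0097). Changes in YAP protein, its phosphorylation or its place in the cell were not measured. The antisense gene Gm20416 (7965838-7977004) lies inside Yap1, away from the 3′ end of Yap1 at 7931999, and these are 3′ end libraries. The strand setting of the counting is not given in the sources used here, so reads from the shared stretch could not be told apart.

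Among the partners of YAP, the mRNA of its paralogue TAZ was lower in co-culture. Wwtr1, which encodes TAZ, had 88.0, 70.3 and 77.9 normalised counts in the 3-day co-cultures, 80.9, 77.3 and 78.7 in the 5-day co-cultures, and 101.5, 165 and 183 in the monocultures. Every co-culture value was below every monoculture value. Wwtr1 fell by 0.88 at 3 days (SE 0.22, limma adjusted p = 0.0105) and by 0.87 at 5 days (SE 0.22, adjusted p = 0.00974) on the log2 scale. Leaving out monoculture replicate 2 ended the 3-day call (adjusted p = 0.0506), as did leaving out replicate 3 (0.0695), which also ended the 5-day call (0.0632). Of the 6 genes tested among YAP, TAZ, the TEAD factors and VGLL cofactors, 2 fell at 3 days (Wwtr1 and Tead3, a TEAD factor) and 1 at 5 days (Wwtr1), where 9.37% and 11.4% of all genes were called lower. None of the 6 was called higher by limma, edgeR or DESeq2 in these comparisons, and 0 were higher at an unadjusted p under 0.05. Tead3 fell by 0.74 on the log2 scale at 3 days (adjusted p = 0.0226), a call lost without 3-day replicate 2 (0.0676) or 3 (0.0615) or monoculture replicate 1 (0.0868) or 3 (0.0715).

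Of the 20 genes of Hippo kinases and scaffolds that were tested, 3 fell at 3 days (Lats2, Amotl2 and the scaffold gene Wwc2), and 4 fell at 5 days (Lats2, Amotl2, the protocadherin gene Dchs1 and the phosphatase gene Ptpn14), where 9.37% and 11.4% of all genes tested were called lower. LATS2 is a kinase that restrains YAP and TAZ and is itself one of their targets. Lats2 had 89.7, 104 and 110 normalised counts at 3 days, 88.1, 73.6 and 68.7 at 5 days, and 267, 188 and 181 in monoculture, so that every co-culture value lay below every monoculture value. The log2 fold change was -1.04 (SE 0.20, adjusted p = 0.00179) and -1.44 (SE 0.20, adjusted p = 7.85e-05) in the 3-day and 5-day comparisons, and it was called under all 21 alternatives at both times. The list's median log2 fold change was -0.19 at 3 days and -0.18 at 5 days, against 0.0014 and -0.0078 over all genes tested. No member of the list was called higher by the main limma fit, edgeR or DESeq2. At an unadjusted p under 0.05 the numbers higher were 2 at 3 days and 1 at 5 days. Over the 21 alternatives, 0 to 1 members of the list were called higher at each time. The 5-day count of 4 calls was 2 without 5-day replicate 2 or monoculture replicate 3. Wwc2 fell by 0.59 (adjusted p = 0.0267), and lost its call without 3-day replicate 1 (0.0507) or 2 (0.0768) or monoculture replicate 1 (0.13) or 3 (0.0564). Dchs1 fell by 1.23 (adjusted p = 0.0134), with the call lost without 5-day replicate 1 (0.0650) or 2 (0.0523) or monoculture replicate 3 (0.0634). Ptpn14 fell by 1.27 (adjusted p = 0.0250), with the call lost without 5-day replicate 2 (0.116) or monoculture replicate 1 (0.107) or 3 (0.0857) and with each library's reads thinned to the total of the shallowest (0.0538).

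**Figure D2:**
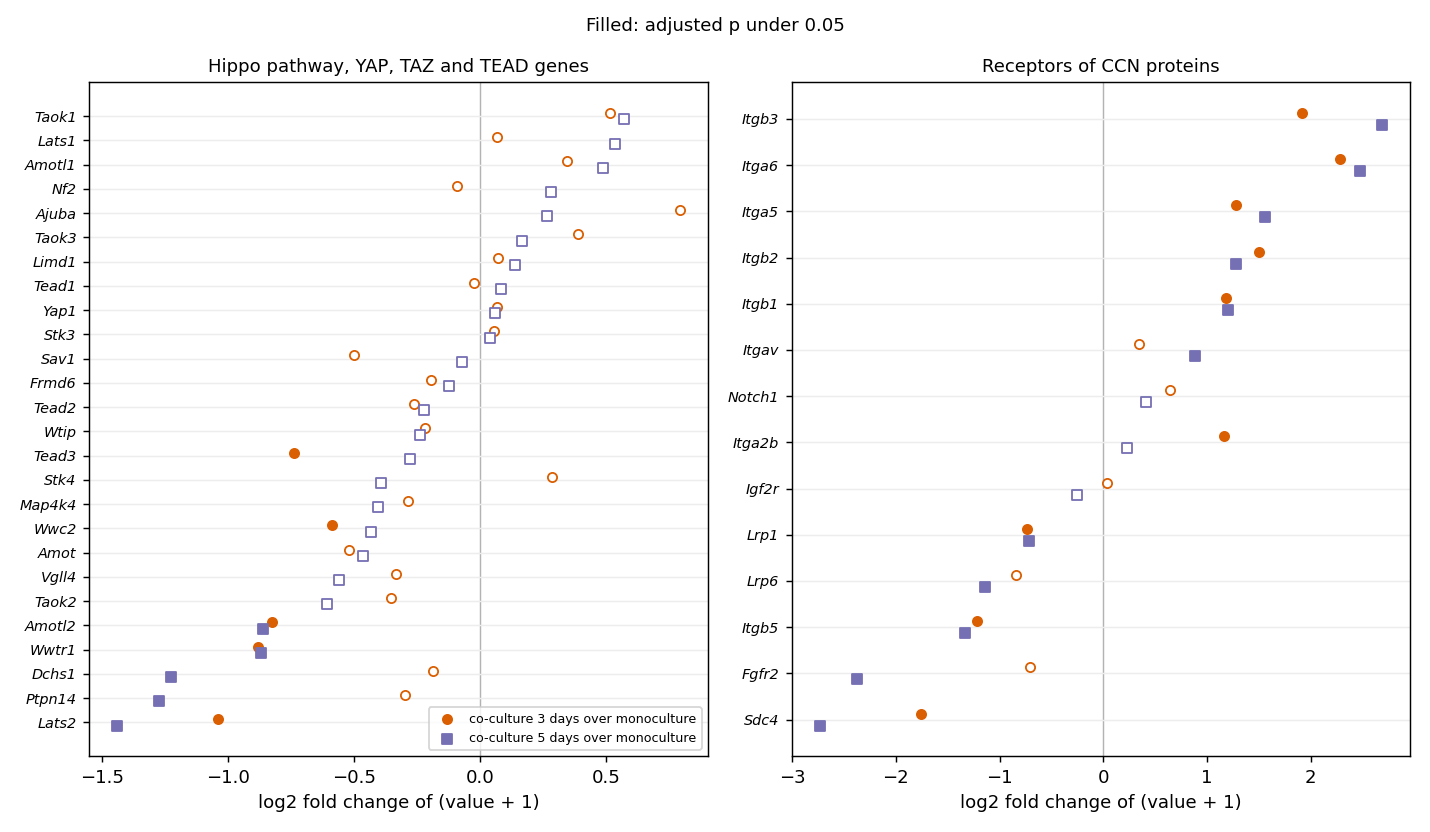
Log2 fold changes of (value + 1) in 3-day (circles) and 5-day (squares) co-culture over monoculture for genes of the Hippo pathway with YAP, TAZ and TEAD (left) and for CCN receptors (right); filled symbols have a limma adjusted p under 0.05. Lats2, Wwtr1 and Amotl2 are filled at both times on the left, where no gene with a positive change is filled, and Sdc4 has the lowest and Itgb3 and Itga6 the highest 5-day values on the right.

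Ctgf (Ccn2; chr10:24595442-24598683, plus strand, mm10) encodes a CCN protein that promotes matrix production and adhesion and is the most widely used readout of YAP and TAZ. Its normalised counts were 7222, 4390 and 6396 after 3 days of co-culture, 4016, 4711 and 5095 after 5 days, and 1248, 1466 and 1150 in monoculture. The lowest co-culture library was above the highest monoculture library by a wide margin, and the 2 co-culture times overlapped. Means were 6002 ± 1456 at 3 days and 4607 ± 547 at 5 days, against 1288 ± 162 in monoculture (SD, n = 3 each). Ctgf rose 4.58-fold at 3 days (log2 fold change 2.20, SE 0.21, limma adjusted p = 2.05e-06) and 3.58-fold at 5 days (1.84, SE 0.21, adjusted p = 7.54e-06). Among 10639 genes these were the 228th and 338th largest rises. Over all alternatives the 3-day value lay between 2.05 and 2.41. The difference between 5 and 3 days, -0.36 (95% interval -0.79 to 0.08), did not pass the test (adjusted p = 0.330). The antisense gene Gm15270 (24549441-24597108) overlaps the first part of Ctgf and is not analysed here. The 3′ end of Ctgf, at 24598683, lies outside it, and these are 3′ end libraries. Without a stated strand setting, reads from the shared stretch could not be told apart.

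Cyr61 (Ccn1; chr3:145646976-145649981, minus strand, mm10), the CCN gene most often paired with Ctgf as a YAP target, was called at neither time. CYR61 is an immediate-early matricellular protein that supports adhesion and, in wound fibroblasts, is known to bring about senescence. It had 3285, 2191 and 2446 normalised counts in the 3-day co-cultures, 2068, 2411 and 5421 in the 5-day co-cultures, and 4095, 4336 and 5011 in the monocultures. All 3-day values lay below all monoculture values, whereas at 5 days replicate 3 was the highest of the 9 libraries and the other 2 were below monoculture. The log2 fold change of -0.78 at 3 days (95% interval -1.39 to -0.17) had a limma adjusted p of 0.0667, and that of -0.57 at 5 days (-1.18 to 0.03) one of 0.166, so neither passed the test. The 5-day result turned on a single library: without 5-day replicate 3 the change was -0.999 and was called (adjusted p = 0.00463). The 3-day value was called under 6 of the 21 alternatives, with a change of -0.95 (adjusted p = 0.0475) without 3-day replicate 1, and with the same change of -0.78 but an adjusted p of 0.0103 when 5-day replicate 3 was left out. Between 5 and 3 days the change was 0.21 (-0.40 to 0.81, adjusted p = 0.730), and it was -0.22 without 5-day replicate 3.

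Both genes were read from the same libraries, so their ratio can be followed library by library. The normalised count of Ctgf divided by that of Cyr61 was 2.20, 2.00 and 2.61 in the 3-day co-cultures, 1.94, 1.95 and 0.940 in the 5-day co-cultures, and 0.305, 0.338 and 0.229 in the monocultures. The ratio was higher in all 6 co-culture libraries than in any monoculture library, including 5-day replicate 3, in which Cyr61 was high. It is a ratio of 3′ end counts and not of molecules, and it is given as a description without a test.

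Ankrd1 (chr19:36111961-36120099, minus strand, mm10) encodes an ankyrin-repeat protein of the nucleus and sarcomere that responds to mechanical load. Its normalised counts were 604.5, 328 and 401 at 3 days of co-culture, 650.5, 659 and 1055 at 5 days, and 282, 197 and 434 in monoculture. All 5-day values exceeded all others, and the 3-day values overlapped monoculture. Means were 444 ± 143 at 3 days and 788 ± 231 at 5 days, against 304 ± 120 in monoculture (SD, n = 3 each). Ankrd1 rose 2.65-fold at 5 days (log2 fold change 1.41, SE 0.28, 95% interval 0.81 to 2.01, limma adjusted p = 0.00172). At 3 days the change was 0.57 (-0.03 to 1.17, adjusted p = 0.171), and it was called without monoculture replicate 3 (0.87, adjusted p = 0.0499). The difference between 5 and 3 days was 0.84 (0.24 to 1.43) and missed the threshold (adjusted p = 0.0884), but it was called without 3-day replicate 1 (1.08, adjusted p = 0.0482) and with only the compared groups in the fit (0.0413).

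Amotl2 (chr9:102716672-102733418, plus strand, mm10) encodes an angiomotin that binds YAP and holds it out of the nucleus, and it is also induced by YAP. It had 236, 228 and 238 normalised counts after 3 days of co-culture, 202, 255 and 230 after 5 days, and 478, 403 and 371.5 in monoculture. Co-culture values at both times lay below every monoculture value and overlapped each other. Amotl2 was 1.77-fold lower at 3 days (log2 fold change -0.83, SE 0.17, limma adjusted p = 0.00261) and 1.82-fold lower at 5 days (-0.86, SE 0.17, adjusted p = 0.00153), and it was called under all 21 alternatives at both times. The difference between 5 and 3 days was -0.04 (95% interval -0.40 to 0.32, adjusted p = 0.928), and 0.05 without 5-day replicate 1. Of the 4 textbook targets, Ctgf and Ankrd1 were thus called higher and Amotl2 lower at 5 days, and Cyr61 was not called.

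**Figure D3:**
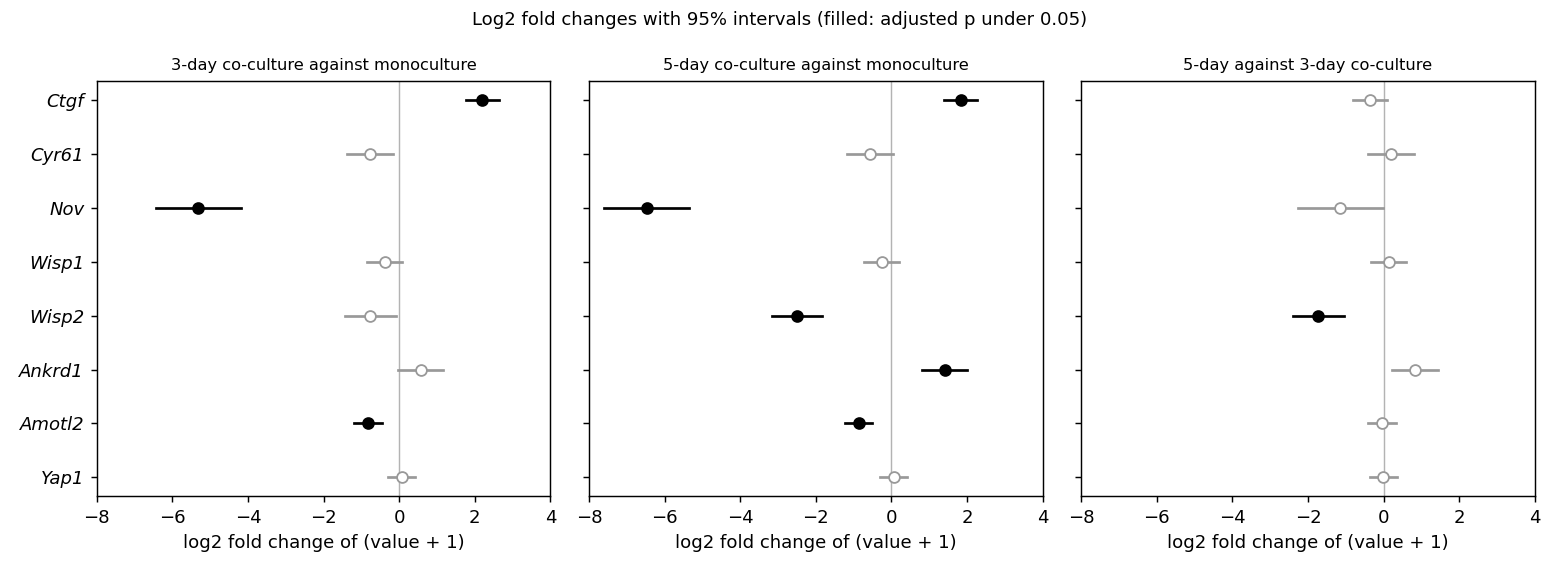
Log2 fold changes of (value + 1) with 95% intervals for the 8 genes in 3-day co-culture against monoculture (left), 5-day co-culture against monoculture (middle) and 5-day against 3-day co-culture (right); filled points have a limma adjusted p under 0.05. Nov is the farthest from 0 on the left and in the middle, and Wisp2 is the only filled point on the right.

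The wider list of 22 YAP and TAZ target genes, which includes Ctgf, Cyr61, Ankrd1 and Amotl2 and also Lats2 and Ptpn14, split in both directions. At 3 days 6 rose and 6 fell, against 10.6% and 9.37% of all genes, and the list's median log2 fold change was -0.02, against 0.0014 over all genes tested. At 5 days 10 rose and 6 fell, against 12.6% and 11.4% of all genes, with a median of 0.05, against -0.0078. The genes that rose at 3 days were Ctgf, Gadd45a, Tgfb2, Fjx1, Nuak2 and Axl, and these 6 also rose at 5 days together with Ankrd1, Nt5e, Dock5 and Myof. Those that fell at 3 days were Amotl2, Lats2, Igfbp3, F3, Rbms3 and Foxf2, and those that fell at 5 days were Amotl2, Lats2, Igfbp3, F3, Ptpn14 and Ccdc80. The 3-day call of F3 was lost without 3-day replicate 1 (adjusted p = 0.0717) or 2 (0.0693) or monoculture replicate 2 (0.0788), and that of Foxf2 under 11 alternatives (up to 0.173, without 3-day replicate 2). At 5 days calls were lost by Axl without 5-day replicate 2 (0.0516) or monoculture replicate 1 (0.0570), by Nt5e without 5-day replicate 3 (0.0730) or monoculture replicate 2 (0.0594), by Myof without 5-day replicate 2 (0.0588) or monoculture replicate 2 (0.0652), and by Ccdc80 without monoculture replicate 2 (0.0785).

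Gadd45a, a stress-induced regulator of the cell cycle and DNA repair, had 1084, 1039 and 992 normalised counts at 3 days, 327, 288 and 427 at 5 days, and 172, 184 and 134 in monoculture. The 3 groups did not overlap. Its log2 fold change was 2.67 at 3 days (SE 0.19, limma adjusted p = 9.58e-08), 1.08 at 5 days (SE 0.19, adjusted p = 0.000511), and -1.60 between 5 and 3 days (SE 0.19, adjusted p = 0.000145). It was the 1 gene of the list called between the co-culture times, where 3.71% of all genes were called lower and 3.2% higher. No gene of the list was called higher there by limma, edgeR or DESeq2, with 5 higher at an unadjusted p under 0.05. Without 3-day replicate 3 the list had 3 calls there, and without 3-day replicate 1 or 5-day replicate 3 it had 2. Tgfb2, a TGF-beta ligand, had 46.5, 46.6 and 50.1 normalised counts at 3 days, 61.1, 43.8 and 59.9 at 5 days, and 17.3, 11.5 and 10.3 in monoculture. All co-culture values of Tgfb2 were above all monoculture values, with log2 fold changes of 1.83 (SE 0.26, adjusted p = 0.000130) and 2.01 (SE 0.26, adjusted p = 3.59e-05). Igfbp3, which encodes a secreted binding protein of insulin-like growth factors, had 126, 177.5 and 122 at 3 days, 88.1, 74.5 and 151 at 5 days, and 299.5, 583.5 and 388 in monoculture. Its co-culture values were all below its monoculture values, and it fell by 1.54 on the log2 scale at 3 days (SE 0.28, adjusted p = 0.000906) and by 2.02 at 5 days (SE 0.28, adjusted p = 5.52e-05).

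**Figure D4:**
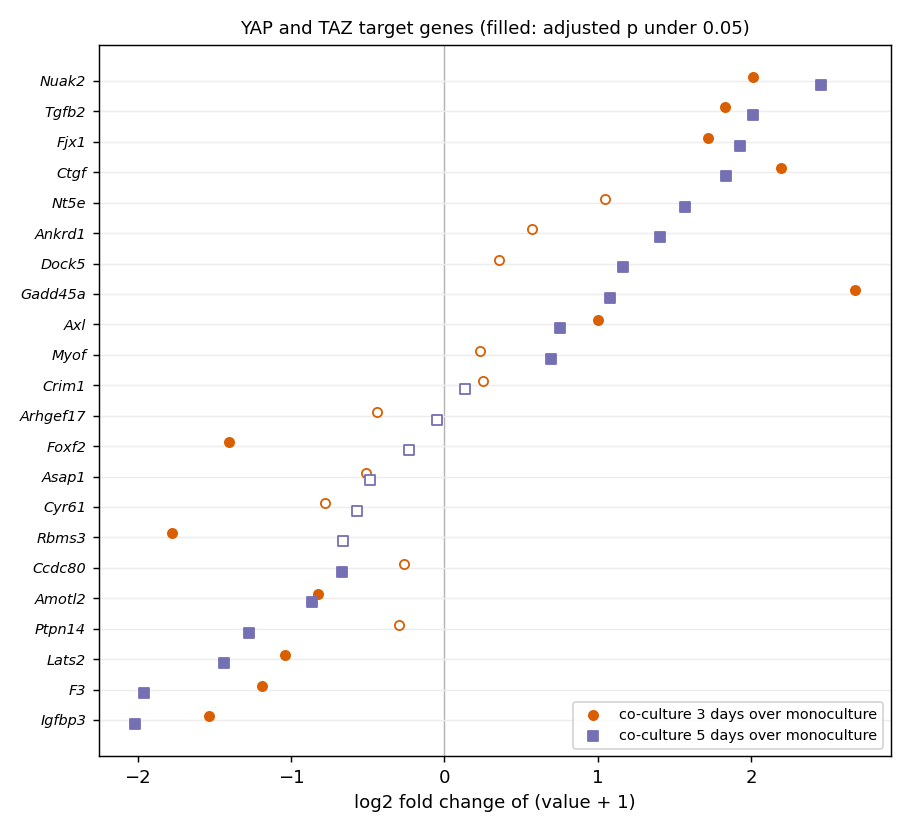
Log2 fold changes of (value + 1) for 22 YAP and TAZ target genes in 3-day (circles) and 5-day (squares) co-culture over monoculture, ordered by the 5-day value; filled symbols have a limma adjusted p under 0.05. Filled symbols lie on both sides of 0, with Nuak2, Tgfb2, Fjx1 and Ctgf at the upper end and Igfbp3, F3 and Lats2 at the lower end at 5 days.

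Nov (Ccn3; chr15:54745702-54754039, plus strand, mm10) showed the largest change of the 8 genes. NOV is a CCN protein that in several settings is known to restrain growth and to act opposite to CTGF. It had 59.8, 16.7 and 16.7 normalised counts after 3 days of co-culture, 4.5, 9.3 and 30.0 after 5 days, and 905, 1623 and 823 in monoculture. These rest on 36, 24 and 12 reads, on 5, 10 and 24 reads, and on 1462, 3377 and 1281 reads. Every co-culture library was far below every monoculture library, while the co-culture times overlapped. The exact Poisson 95% interval of the highest co-culture value, 3-day replicate 1, was 41.9 to 82.8, and that of the lowest monoculture value was 779 to 870, which cover counting error only. Nov was 39.9-fold lower at 3 days (log2 fold change -5.32, SE 0.53, limma adjusted p = 3.47e-06) and 88.4-fold lower at 5 days (-6.47, SE 0.53, adjusted p = 2.77e-07), each the 2nd largest fall among 10639 genes. The change was -5.91 without 3-day replicate 1 and -7.15 without 5-day replicate 3, and with these included it was called under all 21 alternatives at both times, among them thinning all libraries to 1048471 reads. The difference between 5 and 3 days was -1.15 (95% interval -2.27 to -0.02) and was not called (adjusted p = 0.215). It was -0.55 without 3-day replicate 1, -0.58 without 5-day replicate 1 and -1.83 without 5-day replicate 3, and was not called in any of these fits.

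Wisp2 (Ccn5; chr2:163820861-163833146, plus strand, mm10) was the member that differed between the co-culture times. WISP2 lacks the C-terminal domain of the other CCN proteins and is known to oppose fibrotic and growth-promoting actions of CTGF. Its normalised counts were 208, 374.5 and 214 at 3 days of co-culture, 62.0, 84.8 and 84.9 at 5 days, and 623, 569 and 234 in monoculture. All 5-day values were below all others, and the 3-day values overlapped monoculture through monoculture replicate 3. Means were 265 ± 94.5 at 3 days and 77.2 ± 13.2 at 5 days, against 475 ± 211 in monoculture (SD, n = 3 each). At 5 days Wisp2 was 5.64-fold lower than in monoculture (log2 fold change -2.50, SE 0.32, limma adjusted p = 2.69e-05). At 3 days the change was -0.77 (95% interval -1.44 to -0.10) and was not called (adjusted p = 0.10), but without monoculture replicate 3 it was -1.22 and called (adjusted p = 0.00496). At 5 days of co-culture it was 3.31-fold lower than at 3 days (log2 fold change -1.73, SE 0.32, adjusted p = 0.00391), with a range of -1.88 to -1.45 over the 9 fits that left out a library.

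Wisp1 (Ccn4; chr15:66891320-66923201, plus strand, mm10) encodes a CCN protein known as a WNT-induced growth and survival factor. Its normalised counts were 134.5, 111 and 152 after 3 days of co-culture, 178, 160 and 105 after 5 days, and 174, 194 and 150 in monoculture. The 3 groups overlapped, with means of 132.5 ± 20.2, 148 ± 38.1 and 172 ± 22 (SD, n = 3 each) for 3-day co-culture, 5-day co-culture and monoculture. Neither change passed limma, with a log2 fold change of -0.38 (95% interval -0.84 to 0.08) and an adjusted p of 0.241 at 3 days, and of -0.25 (-0.71 to 0.21) and 0.452 at 5 days. For the later against the earlier co-culture it was 0.13 (-0.33 to 0.59, adjusted p = 0.780), and -0.02 without 5-day replicate 1. The 5 CCN genes thus held 1 call in each direction at 3 days, where 10.6% of all genes were called higher and 9.37% lower. At 5 days they held 1 higher and 2 lower calls, where 12.6% of all genes were called higher and 11.4% lower. Their median log2 fold change was -0.77 at 3 days and -0.57 at 5 days, against 0.0014 and -0.0078 over all genes tested.

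Between 5 and 3 days of co-culture 0 members were called higher and 1, Wisp2, was called lower by limma, where 3.2% of all genes tested were called higher and 3.71% lower. At an unadjusted p under 0.05, 1 member (Ankrd1) was higher and 2 (Wisp2 and Nov) were lower, and edgeR and DESeq2 each called 0 higher and 1 lower. The background of 735 genes called in this comparison was 323 without 3-day replicate 2, and 442, 426 and 458 without replicates 1, 2 and 3 of the 5-day co-culture.

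Genes for receptors of CCN proteins shifted in both directions. CCN proteins bind integrins, syndecan-4 and LRP receptors. Of 14 tested, 6 were higher and 3 lower at 3 days, and 6 were higher and 5 lower at 5 days. Of all genes, 10.6% were called higher and 9.37% lower at 3 days, and 12.6% higher and 11.4% lower at 5 days. The median log2 fold change of the receptor genes was 0.49 and 0.32, against 0.0014 and -0.0078 over all genes. Itgb1, the common beta subunit of many matrix-binding integrins, had 3584, 3505 and 2930 normalised counts at 3 days, 3448, 3277 and 3408 at 5 days, and 1377, 1523 and 1509 in monoculture. Every co-culture value was above every monoculture value, while the co-culture times overlapped, and the log2 fold change was 1.18 (SE 0.17, limma adjusted p = 0.000101) and 1.20 (SE 0.17, adjusted p = 6.05e-05). Itgb3, the beta subunit of the vitronectin receptor, had 231, 151 and 170 at 3 days, 373, 269 and 295 at 5 days, and 39.0, 22.1 and 119.5 in monoculture, which is below every co-culture value. It rose by 1.92 (SE 0.41, adjusted p = 0.00310) and 2.69 (SE 0.41, adjusted p = 0.000141) on the log2 scale. Sdc4, which encodes syndecan-4, had 16.6, 39.0 and 25 at 3 days, 10.8, 9.3 and 18.7 at 5 days, and 86.0, 76.9 and 102 in monoculture. It was lower in every co-culture library, with log2 fold changes of -1.75 (SE 0.33, adjusted p = 0.00126) and -2.73 (SE 0.33, adjusted p = 1.43e-05).

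Itga6, a laminin receptor subunit that is also expressed by mammary epithelium, rose by 2.28 (SE 0.44, adjusted p = 0.00160) and 2.47 (SE 0.44, adjusted p = 0.000632), with 33.2, 19.5 and 23.7 normalised counts at 3 days, 30.5, 25.1 and 30.0 at 5 days, and 2.5, 2.4 and 11.6 in monoculture. Its co-culture values were all above its monoculture values and overlapped between the times, and the epithelial marker sums given above were also higher in every co-culture library. The other receptor genes called higher were Itga5 and Itgb2 at both times, Itga2b at 3 days and Itgav at 5 days, and those called lower were Itgb5 and Lrp1 at both times and Lrp6 and Fgfr2 at 5 days. Of these, Itga5 and Itgb5 at 5 days held their calls under all alternatives, and the remaining ones lost theirs under some, with adjusted p-values up to 0.169. The 5-day count of 11 was 6 without 5-day replicate 2 and 7 without monoculture replicate 1 or 3. Between the co-culture times no receptor gene was called by limma, edgeR or DESeq2, with 1 higher and 2 lower at an unadjusted p under 0.05, and without 3-day replicate 1 there were 2 calls.

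Targets of serum response factor (SRF) with its MRTF cofactors, and of TGF-beta, were examined because both pathways also act on CCN genes. The SRF and MRTF list holds Srf itself and the MRTF genes Mkl1 and Mkl2 beside targets. Of its 19 genes tested, 2 rose and 4 fell at 3 days, and 3 rose and 4 fell at 5 days. Of all genes, 10.6% were called higher and 9.37% lower at 3 days, and 12.6% higher and 11.4% lower at 5 days. The counts include Srf, which fell at 3 days, and Mkl1, which rose by 0.81 at 5 days (SE 0.17, limma adjusted p = 0.00248). The list's median log2 fold changes were -0.0026 and 0.01, against 0.0014 and -0.0078 over all genes tested. Fos, an immediate-early AP-1 gene, had 337, 279 and 157 normalised counts at 3 days, 166, 142.5 and 170 at 5 days, and 1379.5, 1088 and 1256.5 in monoculture. It fell by 2.33 (SE 0.23, limma adjusted p = 3.58e-06) and 2.95 (SE 0.23, adjusted p = 1.83e-07) on the log2 scale, and the co-culture values were all below those of monoculture. Cnn1, the smooth muscle calponin gene, rose by 1.30 (SE 0.24, adjusted p = 0.00104) and 0.95 (SE 0.24, adjusted p = 0.00831), so that the list held calls in opposite directions. Against monoculture Srf itself fell by 1.35 on the log2 scale at 3 days (SE 0.25, limma adjusted p = 0.00132). Its 5-day change of -0.46 was not called (adjusted p = 0.211). At 5 against 3 days Srf rose and Tagln and Egr1 fell, where 3.2% of all genes were called higher and 3.71% lower. The call of Srf was lost there under 9 of the 21 alternatives (adjusted p up to 0.126). edgeR called 0 genes of this list higher there and DESeq2 called 2. Against monoculture, calls behind these counts were lost under some alternatives by Actg2 (8) and Egr1 (3) at 3 days and by Tpm2 (8) and Tagln (4) at 5 days. Of 12 immediate targets of TGF-beta, 3 rose and 1 fell at 3 days, and 4 rose and 1 fell at 5 days, with medians of 0.07 and 0.02, beside the same shares and medians over all genes. The count was 2 at 3 days without 3-day replicate 2, and 3 at 5 days without monoculture replicate 2. Junb, an AP-1 gene, was the member that fell, by 0.98 (SE 0.22, adjusted p = 0.00412) and 1.33 (SE 0.22, adjusted p = 0.000298). Between 5 and 3 days 1 TGF-beta target, Pmepa1, a negative regulator of TGF-beta signalling, rose, by 0.77 (SE 0.16, adjusted p = 0.00901).

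The genes whose pattern over the 9 libraries was most like each member were found by the root mean square difference of log2 values centred on each gene's mean, among 8865 genes with a mean of at least 10. For Ctgf these were Ifit3 (0.196), Oas1b (0.289) and Sdcbp2 (0.290), against a median of 1.04 over all genes compared. For Nov they were Figf (0.726), Mup5 (0.834) and C4b (0.923), against a median of 2.95, and Mup5 and C4b have near-identical copies whose reads counting could split. For Wisp2 they were Xdh (0.305), Mtss1l (0.334) and Lgi2 (0.353), against 1.19. Nearest to Ankrd1 were Tnfrsf11b (0.256), Oaf (0.257) and Brinp1 (0.264), against 0.786. Figf, the gene of the growth factor VEGF-D, averaged 42.2 and 12.2 normalised counts in the 3-day and 5-day co-cultures, against 1291 in monoculture, which is the same order of groups as Nov. The difference to the nearest gene was 0.0823 for Amotl2 (Ltbr), 0.104 for Wisp1 (Slc25a20), 0.214 for Cyr61 (Mrps28) and 0.0639 for Yap1 (Mfn2). All of these values share the same 9 libraries and are a description without a test.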

How the data were processed

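The authors deposited normalised read counts, a signal on a count scale, for 9 libraries of sorted mouse fibroblasts. Per the submitters' processing notes, bcl2fastq, STAR 2.4.2a, HTSeq and mm10 were used; strand setting, gene filter and library factors are not given in the sources used here. Whole reads were recovered by dividing each library by what 1 read is worth (0.481 to 1.66 units), and at least 99.8% of values came out whole within 0.051; counting intervals cover counting error only. Among the gene names 18 were date-like. The members and the 7 gene lists were chosen with earlier results of these data known.

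The main test was limma 3.58.1 (R 4.3.3; lmFit, eBayes with trend, two-sided, Benjamini-Hochberg adjustment) on log2(value + 1), with 1 mean per group over all 9 libraries, for 10639 genes that reached 5 in 3 or more libraries; 1292 were left out. Such fold changes understate the change of low genes. The alternatives comprised 2 other pseudocounts (0.5 and 5), testing without the filter or only genes averaging 20 or more, TMM, median-of-ratios and quantile scaling, a replicate block, only the compared groups, edgeR 4.0.16 (quasi-likelihood) and DESeq2 1.42.0 on the recovered reads, thinning to the shallowest library (chosen after seeing the data) and leaving out each library, 21 in all. Scripts were tested on simulated reads.

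The text names all members, up to 3 called genes of each list per comparison by adjusted p, and the genes nearest in pattern; others named were added after their values were seen, and 1 gene that the rule took is not reported here. Positions are from GENCODE M21 (mm10), with 5 members matched by synonym. Replicates of a group differed by far more than sampling noise (chi-square per degree of freedom of 6.32 to 15.1).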

Additional observations from a re-analysis of the deposited data

Results flagged for a closer look

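The log2 change of Wisp2 in co-culture against monoculture was -2.50 at 5 days and -0.77 at 3 days, and the difference between the 2 changes, -1.73, passed the test (limma adjusted p = 0.00391). The 5-day libraries had 62.0, 84.8 and 84.9 normalised counts and the 3-day libraries 208, 374.5 and 214, so the 2 times did not overlap. Both changes are set against the same 5-day monoculture libraries, and their difference is that between the co-culture times. In that difference, days beside 4T1 cells and days in culture cannot be told apart. The 15 epithelial and carcinoma markers measured summed to 1046 to 1438 at 5 days and 811 to 1069 at 3 days. Of 13 fibroblast markers, 4 were called lower and 1 higher at 5 than at 3 days, against 3.71% and 3.2% of all genes. The part of these markers in the result was not tested. No other member was singled out.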

How the results depend on the processing

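Over 24 member fold changes and 21 alternatives, 482 of 504 values kept their direction and their side of the threshold, 13 gained a call, 9 changed sign and 0 lost a call. The members called at 3 days numbered 3, but 5 by DESeq2 and 3 to 5 when a library was left out. Between 5 and 3 days 1 member was called, against 2 with a replicate block, 2 with only the compared groups and 1 to 2 when a library was left out. The block gave Ankrd1 an adjusted p of 0.0340 in that comparison and Cyr61 one of 0.0423 at 3 days, and it removed no member's call. Sample titles number the repetitions alike in each group and do not say what a number shares. Same-numbered libraries correlated by -0.114 to 0.233, with 4 of 9 pairs over 0.1. Of the libraries, 2 correlated best with their own number in both other groups. With 3 libraries per group this cannot decide whether the numbers are a pairing, and the main fit did not use them as one. The 735 genes called between 5 and 3 days became 323 to 739 when a library was left out. Changes that took the other sign all missed the threshold. For Yap1 at 5 days they were -0.0022 under quantile normalization and -0.0364 to 0.18 when a library was left out. For Yap1 between the times they were 0.0036 by edgeR, 0.0097 by DESeq2 and -0.10 to 0.11 when a library was left out. Between the times Cyr61 lay between -0.22 and 0.47, Wisp1 between -0.0198 and 0.36, and Amotl2 between -0.12 and 0.0492 when a library was left out. The cause of these differences was not tested. No scaling moved the median of all genes by over 0.1. The limits are 3 libraries per group, 5 to 36 reads for Nov in each co-culture library, and the absence of a 3-day monoculture from the comparisons.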
